A study of Mus musculus with 18 samples.

Results

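The proteasome genes of mouse liver were taken by name: every gene whose symbol is Psma, Psmb, Psmc, Psmd, Psme, Psmf or Psmg followed by a number. The rule found 51 of the 21018 genes present in at least 1 of the 3 count tables, and all 51 had a read in each kit. Of these, 46 are subunits, activators, an inhibitor or assembly factors of the proteasome, 4 carry pseudogene names (Psmb5-ps, Psmb6-ps, Psmb7-ps2 and Psme2b-ps) and 1, Psmc3ip, is a meiotic recombination cofactor and not a proteasome subunit. The immune subunit Psmb9 and the thymic subunit Psmb11 were not analysed here.

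The RNA came from the livers of male C57/B6J mice aged 12 weeks. Of 6 animals, 3 mice had received an intraperitoneal dose of 20 µg/kg IL-1β 4 h earlier and 3 had received saline. RNA of each mouse entered the Pico kit (1.7 to 2.6 ng, stranded, ribosomal RNA depleted), the V4 kit (0.8 to 1.3 ng, poly(A), unstranded) and the TruSeq kit (200 ng, poly(A), stranded), which gave 18 libraries and 1 library for each mouse and kit. Pico libraries held between 4024632 and 4134070 counts, V4 libraries between 12013453 and 12352473, and TruSeq libraries between 12348864 and 12858237, so Pico values carried the largest counting error. TruSeq had been sequenced on another instrument and in an earlier study, with 125-base instead of 150-base reads, so kit, instrument and run cannot be told apart. The liver label was checked against markers: 8 hepatocyte genes, albumin among them, summed to between 53064 and 117567 CPM (counts scaled to a common library total) in each library. Values are listed for mice 1, 2 and 3 of a group, in the same order for every gene and kit, and overlap of groups is stated for the counts as deposited. Groups without overlap were common. Over all genes, the treated libraries all lay higher in 14.5% and all lower in 29.3% in TruSeq. These shares were 8.71% and 18.2% in V4 and 11.0% and 19.2% in Pico. Of the 51 members, 21 and 7 did so in TruSeq, 12 and 2 in V4, and 8 and 2 in Pico.

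The proteasome is the barrel-shaped protease that degrades ubiquitin-tagged proteins. Its core particle stacks rings of α and β subunits, and the β subunits Psmb5, Psmb6 and Psmb7 hold the active sites. Inflammatory cytokines, interferon-γ above all, are known to induce the alternative catalytic subunits Psmb8, Psmb9 and Psmb10, which take the places of Psmb5, Psmb6 and Psmb7 in newly built cores. The resulting immunoproteasome cuts proteins into peptides that fit MHC class I molecules. A regulatory particle with ATPases, base and lid caps the core, the PA28 activators (Psme1 and Psme2) can replace it, and dedicated chaperones assemble both.

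The regulatory sequences of the catalytic subunits are shown for reference, since these are the genes that the immune and constitutive comparison is made between. Each line gives the 250 bases before the RefSeq transcription start on build GRCm38.p6, read 5′ to 3′ on the strand of the gene, with matches to 5 searched motifs in capitals. The window was chr14:54617996-54618245 (minus strand) for Psmb5, chr11:70525107-70525356 (plus) for Psmb6, chr17:34197945-34198194 (plus) for Psmb8 and chr8:105938393-105938642 (minus) for Psmb10. Psmb7 and the other 7 members without a window were Psma8, Psmb1, Psmb2, Psmc3, Psmd3, Psmd7 and Psmg2.
Psmb5: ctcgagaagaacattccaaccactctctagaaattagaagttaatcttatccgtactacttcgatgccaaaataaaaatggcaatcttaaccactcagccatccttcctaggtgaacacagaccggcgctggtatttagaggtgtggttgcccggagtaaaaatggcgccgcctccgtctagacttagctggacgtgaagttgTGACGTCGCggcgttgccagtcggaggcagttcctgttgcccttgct
Psmb6: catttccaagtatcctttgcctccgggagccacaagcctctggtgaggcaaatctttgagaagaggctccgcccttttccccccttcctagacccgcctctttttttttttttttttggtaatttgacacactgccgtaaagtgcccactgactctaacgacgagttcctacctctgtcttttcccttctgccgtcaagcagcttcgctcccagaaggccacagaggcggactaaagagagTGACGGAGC
Psmb8: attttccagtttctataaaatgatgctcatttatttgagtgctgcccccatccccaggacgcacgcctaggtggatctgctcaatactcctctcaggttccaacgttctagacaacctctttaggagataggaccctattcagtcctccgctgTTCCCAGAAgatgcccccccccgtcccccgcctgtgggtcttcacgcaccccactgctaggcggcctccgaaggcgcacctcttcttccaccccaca
Psmb10: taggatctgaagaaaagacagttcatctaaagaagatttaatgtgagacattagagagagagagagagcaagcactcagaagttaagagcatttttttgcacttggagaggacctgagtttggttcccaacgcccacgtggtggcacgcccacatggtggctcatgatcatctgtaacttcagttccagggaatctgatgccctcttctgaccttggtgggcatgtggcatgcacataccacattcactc

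The capitals in both constitutive genes are the core of the antioxidant response element (TGACNNNGC), the site read by NRF-type factors, at bases -47 to -39 in Psmb5 and -9 to -1 in Psmb6, counted back from the start. For Psmb6, unlike Psmb5, Psmb8 and Psmb10, the end of the promoter sequence was not found in its own annotated transcripts. Its positions therefore rest on the RefSeq start alone. The capitals in Psmb8 are a GAS element (TTCNNNGAA), the site that STAT factors read, at bases -97 to -89. Psmb10 held none of the searched letters in this window. Motifs were searched on both strands in the 38 members with a window and in the windows of 27025 genes. The antioxidant core stood in 5 of 38 members (13.2%) against 11.5% of all genes, the GAS element in 2 of 38 (5.26%) against 8.13%, and the CCAAT box (CCAAT) in 12 of 38 (31.6%) against 37.5%. The interferon-stimulated response element (GAAA, NN, GAAA) stood in 3 of 38 (7.89%) against 3.46%, and the NF-κB consensus in 6 of 38 (15.8%) against 8.23%. No matches overlapped in the 4 windows shown, and all are descriptions of the letters only.

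The first question was whether the immune catalytic subunits responded to IL-1β. Psmb10, the alternative to Psmb7, was the most strongly raised proteasome gene of the TruSeq libraries and reached 1.97-fold of saline, and Psmb8, the alternative to Psmb5, rose 1.41-fold. On library totals neither Psmb5, Psmb6 nor Psmb7 passed the threshold in any kit, but with TMM scaling Psmb5 was also called higher in TruSeq (0.42, limma-voom adjusted p = 0.0106). In bulk RNA more cells of a type and more RNA per cell cannot be told apart. All fold changes are from limma-voom with library totals, 1 fit per kit over all genes, and a gene was called at a Benjamini-Hochberg adjusted p of at most 0.05.

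Psmb10 (chr8:108459628-108462292, mm9) counted 280, 258 and 329 in the saline TruSeq libraries and 491, 570 and 593 after IL-1β. The groups did not overlap, and the log2 fold change was 0.98 ± 0.13 (SE, n = 3 against 3; limma-voom adjusted p = 0.000367). In V4 it counted 598, 683 and 979 in saline and 1496, 1316 and 1136 after IL-1β. These groups did not overlap either (0.83 ± 0.21, adjusted p = 0.0256), but saline mouse 3 stood nearer to the treated libraries than the other saline mice. Pico gave 64, 82 and 59 in saline against 80, 103 and 62, which overlapped (0.27 ± 0.26, adjusted p = 0.568). The TruSeq call held in all 6 fits that left out 1 mouse, with adjusted p between 0.0019 and 0.00683. The V4 call held only without saline mouse 3, with p from 0.0133 to 0.111 over those fits.

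Psmb8 (chr17:34334666-34338399, mm9) counted 279, 271 and 273 in the saline TruSeq libraries and 386, 433 and 314 after IL-1β. The saline mice lay close together, and the treated mice all lay above them (0.49 ± 0.13, adjusted p = 0.0188). V4 counts were 747, 640 and 625 in saline against 1152, 1079 and 848, without overlap, and the change missed the threshold at 0.61 ± 0.19 (adjusted p = 0.0613). It passed with TMM (adjusted p = 0.0250), edgeR (0.0116) and DESeq2 (0.00168). Pico counts were 91, 83 and 57 against 97, 110 and 64, and overlapped (0.25 ± 0.27, adjusted p = 0.605). In TruSeq the Psmb8 call held only in the fit without IL-1β mouse 3 (adjusted p = 0.00623) and was lost in the other 5 leave-outs, where p reached 0.0682. On the opposite strand, 187 exonic bases of Psmb8 overlap the gene Gm20496, which the unstranded V4 counts cannot separate.

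Psmb5 (chr14:55232644-55236851) carries the chymotrypsin-like site, and its TruSeq counts were 578, 522 and 629 in saline against 683, 662 and 664 after IL-1β. The groups did not overlap, and the change was 0.26 ± 0.10 (limma-voom adjusted p = 0.0753). Besides TMM, edgeR (adjusted p = 0.00953) and DESeq2 (0.00543) called it. In V4 it counted 1901, 1875 and 2105 against 2165, 2089 and 2081, and in Pico 126, 77 and 104 against 83, 94 and 90. Both overlapped, although the V4 groups were apart once scaled to CPM, and the log2 fold changes were 0.12 ± 0.14 and -0.15 ± 0.23. Psmb5 also has a nearly complete copy with 99.0% identity over 871 bases at chr7:3181090-3181960 (mm9), where no gene is annotated. What share of reads that copy drew was not tested.

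Psmb6 (chr11:70338869-70341360), the caspase-like subunit, counted 1160, 1109 and 1325 in saline and 1262, 1184 and 1331 after IL-1β in TruSeq, and the groups overlapped. Its V4 counts of 3479, 3710 and 4552 against 4286, 4016 and 4156 overlapped as well, as did the Pico counts of 246, 282 and 289 against 263, 238 and 255. Psmb7 (chr2:38443556-38499607), the trypsin-like subunit, counted 1494, 1600 and 1468 in saline against 1430, 1334 and 1237 in TruSeq. The counts did not overlap but the CPM values did, and the change did not pass (-0.15 ± 0.10, adjusted p = 0.277). V4 counts of Psmb7 were 1612, 1645 and 1660 against 1689, 1857 and 1616, and Pico counts were 258, 204 and 202 against 207, 247 and 184, both with overlap.

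**Figure D1:**
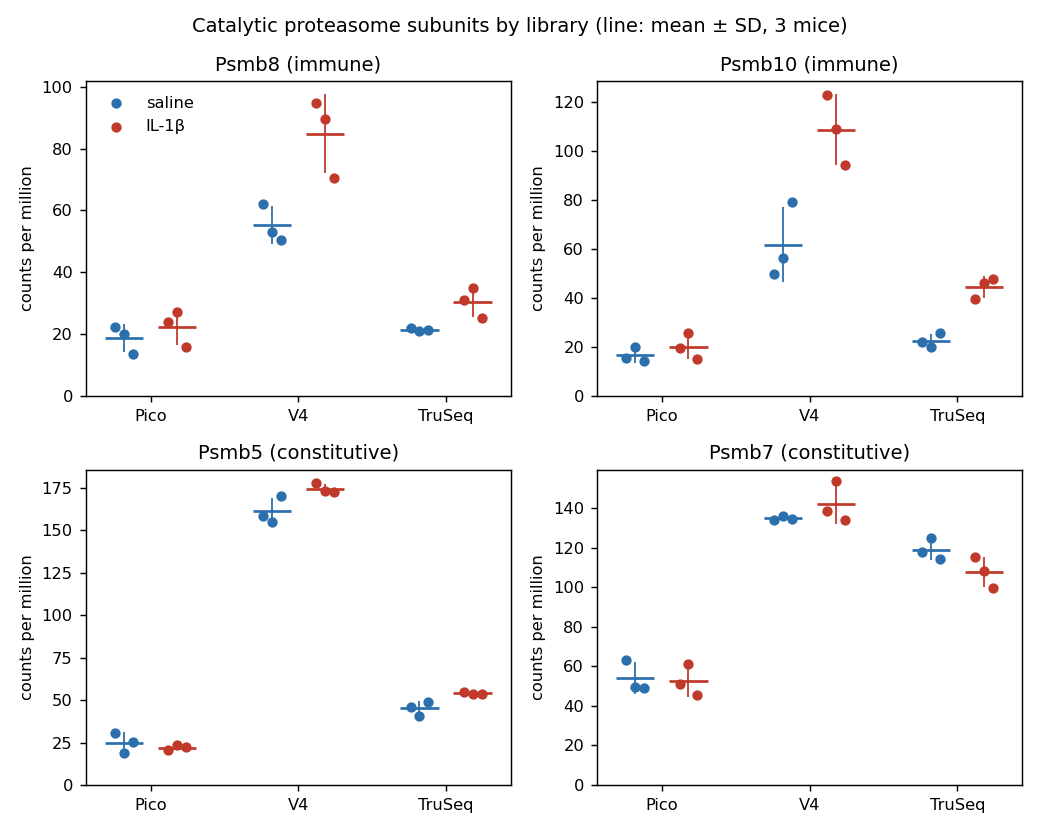
CPM (y axis) of Psmb8, Psmb10, Psmb5 and Psmb7 in each of the 18 libraries, by kit (x axis), with points for single mice, a horizontal line for the mean and a vertical line for the SD of 3 mice. The 3 TruSeq libraries after IL-1β lie above the saline TruSeq libraries for Psmb8, Psmb10 and Psmb5, and for Psmb7 1 of them lies within the saline TruSeq range.

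Per kilobase of exon, immune subunits were the lesser part of the catalytic transcripts. In saline TruSeq libraries the level was 98.1 CPM per kilobase for Psmb7, 50.1 for Psmb6 and 48.9 for Psmb5, against 17.8 for Psmb10 and 7.85 for Psmb8. Length here is that of all annotated exons together, 1872 bases for Psmb6 and 2736 for Psmb8. Their longest coding transcripts hold 798 and 1628 bases, so these levels and their order depend on the length used. Within a library, the ratio of an immune subunit to its constitutive partner does not depend on depth or scaling. The log2 ratio of Psmb10 to Psmb7 counts in TruSeq was -2.41, -2.63 and -2.16 in saline and -1.54, -1.23 and -1.06 after IL-1β, so no libraries overlapped. The mean ratio was 2.18-fold higher after IL-1β, and per length Psmb10 stood at 18.1% of Psmb7 in saline and 39.5% after IL-1β. In V4 the same ratio was 1.69-fold higher, again without overlap, and in Pico 1.23-fold higher with overlap. The share per length also differed by kit, at 43.0% in saline and 72.8% after IL-1β in V4, and 29.6% and 36.3% in Pico. The ratio of Psmb8 to Psmb5 was 1.41-fold higher in V4 without overlap, and 1.31-fold in Pico and 1.17-fold in TruSeq with overlap. The 3 ratios without overlap gave an exact permutation p of 0.1 (two-sided), the smallest that 3 mice against 3 can give, and 0.2 after adjustment over the 6 ratios, so no ratio could pass 0.05. The other 3 had an exact p of 0.3.

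**Figure D2:**
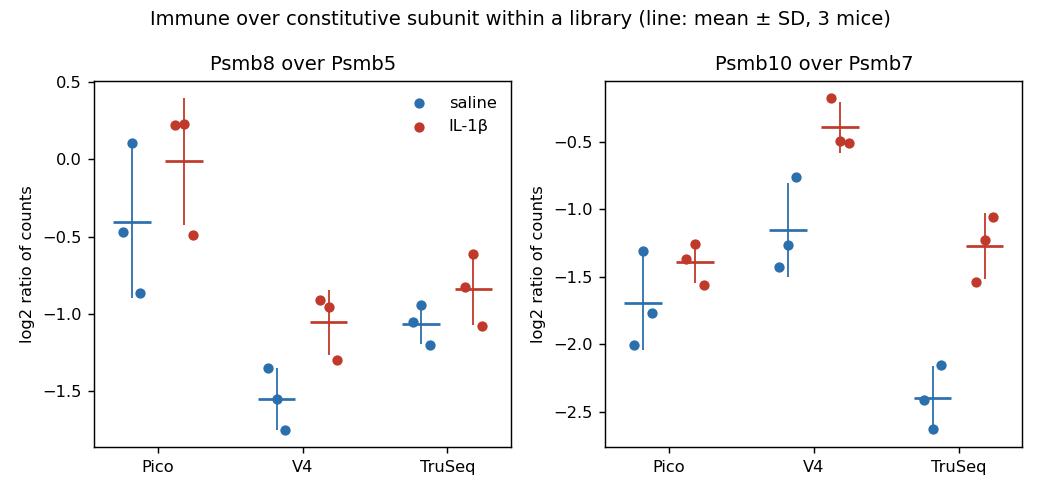
Log2 ratio of counts within a library (y axis) for Psmb8 over Psmb5 and Psmb10 over Psmb7, by kit, with points for mice and lines for the mean and SD of 3 mice. In TruSeq the Psmb10 over Psmb7 ratio averaged -2.40 in saline and -1.28 after IL-1β.

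Markers of other cell types were read beside the immune subunits, and some moved with IL-1β. The 9 neutrophil markers summed to 4.84 to 7.67 CPM in saline TruSeq libraries and 54.5 to 103 CPM after IL-1β, and 8 of 9 were called higher. S100a8 counted 13, 6 and 6 against 145, 312 and 186, while Ly6g, the marker that defines neutrophils, was at 0, 0 and 0 against 0, 2 and 2. Pico called 8 of 8 neutrophil markers higher and V4 6 of 8. The 6 general leukocyte markers summed to 28.1 to 40.9 CPM in saline and 26.8 to 36.7 CPM after IL-1β in TruSeq, with 0 called in any kit on library totals, and Ptprc (CD45) stood at 121, 91 and 81 against 47, 86 and 45. Of 9 macrophage and Kupffer cell markers 6 were lower and 1 higher in TruSeq, with sums of 166 to 279 CPM in saline and 89.0 to 126 after IL-1β, and 4 were lower in Pico and 2 in V4. Of 11 lymphocyte markers 3 were lower in TruSeq, with sums of 3.89 to 5.85 CPM in saline and 1.69 to 2.58 after IL-1β. In Pico 1 of 10 measured was higher and 0 lower, with sums of 3.87 to 5.83 and 3.98 to 6.19, and in V4 0 were higher and 1 lower, with sums of 2.89 to 7.33 and 1.41 to 4.73. In TruSeq Cd3e was at 3, 4 and 2 against 3, 1 and 1. Of 7 endothelial markers 4 were lower and 1 higher in TruSeq, 3 and 2 in Pico and 2 and 0 in V4, with TruSeq sums of 194 to 217 CPM in saline and 127 to 160 after IL-1β. Over all genes, the shares called higher and lower were 12.3% and 21.8% in TruSeq. They were 6.78% and 10.8% in Pico, and 3.6% and 7.41% in V4. The 3 of 11 lymphocyte markers called lower in TruSeq lay near that share. The part of these cells in the changes of Psmb8 and Psmb10 was not tested.

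The kits were compared gene by gene by the interaction of kit and treatment. Both kits of a pair hold the same mice, but the fit printed here had no block for the mouse. The Pico change of Psmb10 was smaller than the TruSeq change by a log2 difference of -0.71 (95% interval -1.31 to -0.11), with an unadjusted limma-voom p of 0.0229 and an adjusted p of 0.900. With the mouse as a block this difference was -0.69 (-1.33 to -0.06), with an unadjusted limma-voom p of 0.0349 and an adjusted p of 0.669. The V4 change differed from the TruSeq change by -0.14 (-0.71 to 0.42). For Psmb8 the Pico change differed from that in TruSeq by -0.24 (-0.88 to 0.40) and the V4 change by 0.12 (-0.39 to 0.63). None of the 51 members differed between kits at adjusted p 0.05 in any of the 3 pairs, where the share of all genes called was 0, and at an unadjusted p under 0.05 there were 2 members for Pico and TruSeq (Psma4 and Psmb10) and 0 for each other pair. The edgeR and DESeq2 fits also called 0 members. A member called in 1 kit and not in another was therefore not shown to differ between kits.

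Of the 51 members, 13 were called higher and 3 lower after IL-1β in TruSeq. That is 25.5% higher and 5.88% lower, against 12.3% and 21.8% of the 19424 genes tested. V4 called 2 higher (Psmb10 and Psme2b-ps) and 0 lower, against 3.6% and 7.41% of all genes, and 6 of its members had an unadjusted p under 0.05. Pico called 1 higher (Psma4) and 0 lower, against 6.78% and 10.8%, again with 6 members at an unadjusted p under 0.05. Calls were more frequent among genes of higher count. Where the comparison was limited to genes averaging 100 counts or more, TruSeq called 12 of 45 members higher (26.7%) and 2 lower (4.44%), against 20.8% and 31.4% of all such genes. The same restriction gave 2 and 0 of 46 members in V4, against 6.97% and 13.3%, and 1 and 0 of 32 in Pico, against 15.3% and 23.1%. For higher calls the share of members was near or below the background in Pico and V4, and above it in TruSeq by a small margin among genes of that count.

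The members lay above the bulk of the genes in each kit. Their median log2 fold change was 0.14 in TruSeq, 0.12 in V4 and 0.15 in Pico, while that of all genes was -0.17, -0.22 and -0.12. Among genes averaging 100 counts or more, the member medians were 0.14, 0.12 and 0.18, and those of all such genes -0.09, -0.16 and -0.09. The gap was thus smaller at like count in TruSeq and V4. Summed over the 46 proteasome genes, TruSeq libraries held 3035, 3043 and 2962 CPM in saline and 3328, 3413 and 3205 after IL-1β. The treated libraries were higher by 1.10-fold on average, without overlap, and V4 and Pico sums had ratios of 1.10 and 1.09, also without overlap (exact permutation p = 0.1 in each, the smallest possible). The 3 kits share their mice and are not independent of each other. With TMM scaling, which sets the bulk of genes near no change, the all-gene median was -0.01, -0.06 and 0.02, and the member calls became 24 higher and 1 lower in TruSeq (background 16.7% and 16.1%). TMM gave 5 and 0 in V4 (4.79% and 4.84%) and 6 and 0 in Pico (9.16% and 8.16%). These TMM shares are over all genes, and those among genes averaging 100 counts or more were not computed. On library totals that limit raised the TruSeq shares to 20.8% and 31.4%, so the TMM counts have no background of like count. Changes by role are given on library totals and are to be read against the all-gene medians. Counts of calls by role are to be read against the shares of all genes called.

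**Figure D3:**
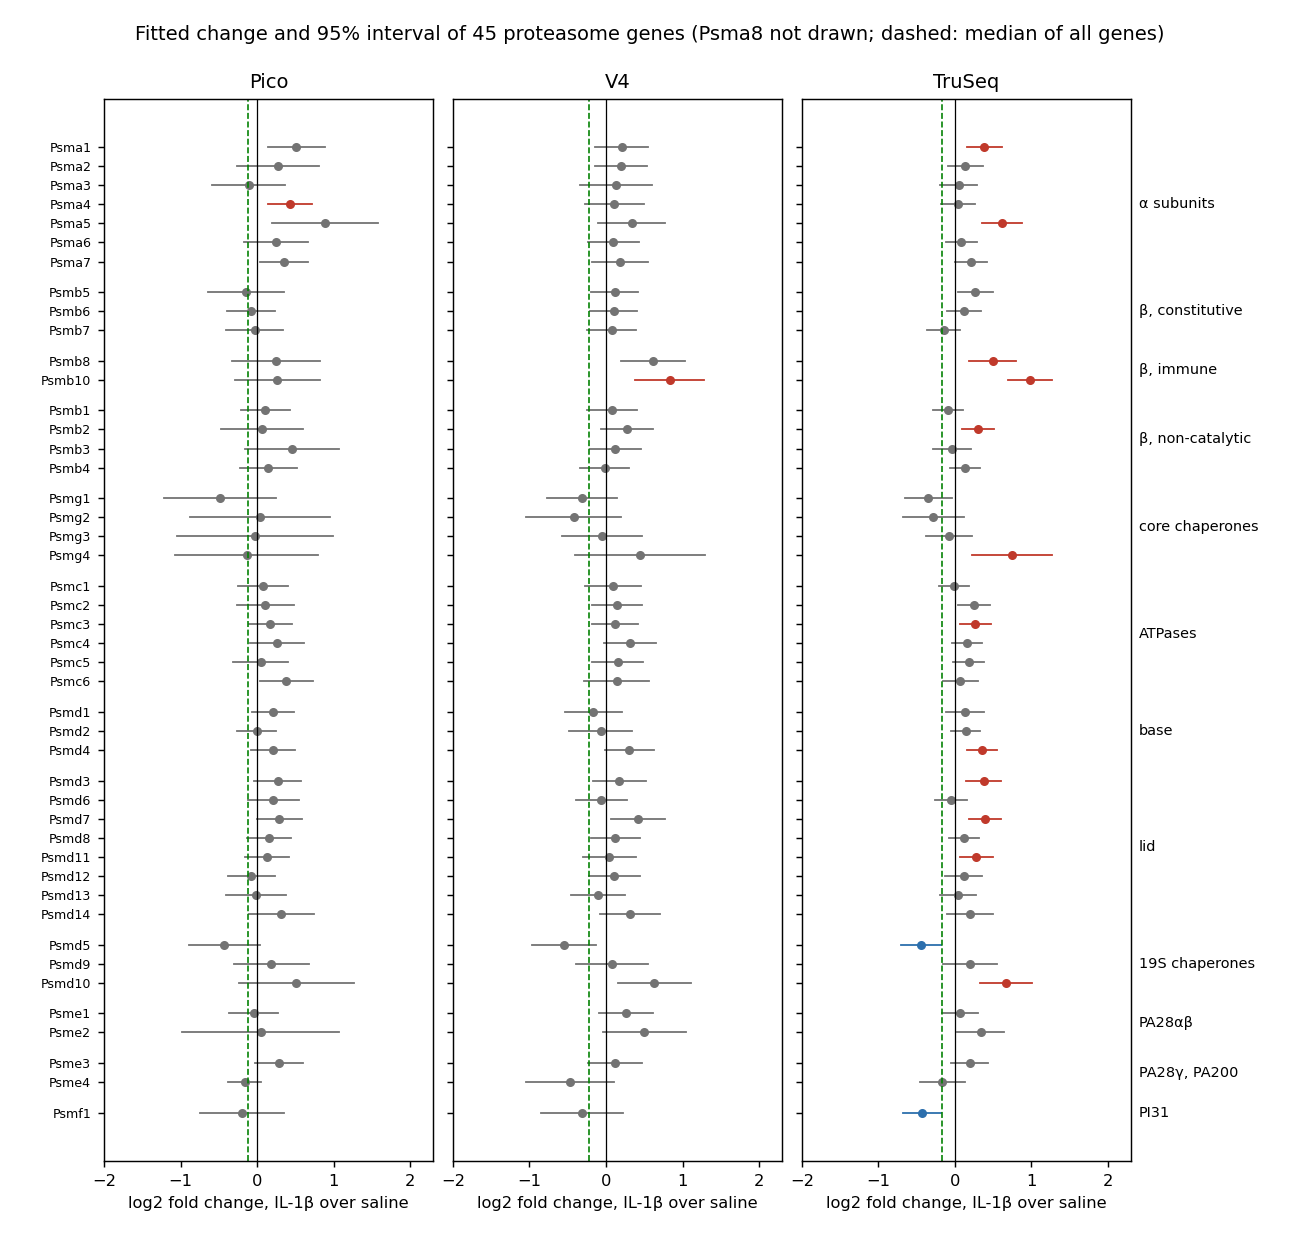
Log2 fold change of IL-1β over saline (x axis) with its 95% interval for 45 proteasome genes by role, 1 panel per kit. Red marks genes called higher and blue genes called lower at adjusted p 0.05, the dashed line is the median of all genes, and Psmb10 has the largest fitted change in the TruSeq panel at 0.98.

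The α subunits form the outer rings and the gate of the core. In TruSeq 2 of 7 rose, against 12.3% of all genes and 20.8% of those averaging 100 counts or more. The 7 changes ran from 0.04 to 0.62. With TMM 4 of 7 were called higher in TruSeq and 4 in Pico, against 1 in Pico on library totals. The TMM shares of all genes called higher were 16.7% in TruSeq and 9.16% in Pico. Psma5 (α5) counted 223, 192 and 206 in saline and 335, 292 and 297 after IL-1β, with wide separation between the groups (0.62 ± 0.12, adjusted p = 0.00324). Psma5 in Pico counted 41, 22 and 32 against 57, 62 and 50 (0.89 ± 0.33, adjusted p = 0.0729), and in V4 413, 398 and 358 against 431, 534 and 506 (0.33 ± 0.20, adjusted p = 0.344). No group overlapped with its control for this gene, and the Pico change passed with TMM (adjusted p = 0.0385). Psma5 has 2 further loci with 97.8% and 98.6% identity over 80.2% and 79.1% of its transcript, at Gm12989 and Gm8394. Psma1 rose by 0.38 ± 0.10 in TruSeq (adjusted p = 0.0159) and was 0.51 ± 0.18 in Pico (0.0555). Its TruSeq call was lost without IL-1β mouse 1 or 2 or saline mouse 1 or 3 (adjusted p up to 0.0597). Psma4 was called in Pico, where it rose from 357, 313 and 332 counts to 425, 471 and 428 (0.43 ± 0.13, adjusted p = 0.0347), while TruSeq gave 0.04 ± 0.10 and V4 0.11 ± 0.17. The Psma4 call held in 1 of 6 leave-outs, that without saline mouse 1, and a locus with 97.4% identity repeats its whole transcript. The germ-cell α subunit Psma8 was near the floor of detection, at 12, 7 and 13 counts in saline and 2, 4 and 2 after IL-1β in TruSeq. It was called lower there (adjusted p = 0.0132), a call lost without IL-1β mouse 1 or 3 and with DESeq2 (0.0692). V4 gave it 5, 23 and 2 against 19, 3 and 2, and Pico 0, 0 and 11 against 0, 0 and 1, so within the saline groups a single mouse held most of the reads.

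The non-catalytic β subunits complete the inner rings. In TruSeq 1 of 4 rose on library totals and 2 of 4 with TMM, against 12.3% and 16.7% of all genes. The first was Psmb2, at 0.31 ± 0.09 (adjusted p = 0.029), beside Psmb1 at -0.09 ± 0.09 and Psmb4 at 0.13 ± 0.09. The Psmb2 call was lost without IL-1β mouse 1 or 2 or saline mouse 1 or 3 (adjusted p up to 0.0824). None of the 4 passed in V4 or Pico under either scaling, where changes on library totals ran from -0.02 to 0.27 and from 0.06 to 0.46. Per kilobase of all annotated exons, Psmb1 stood highest of the 45 somatic proteasome genes in saline V4 and Pico libraries, at 193 and 67.1 CPM.

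The ATPases Psmc1 to Psmc6 unfold substrates at the base of the regulatory particle. On library totals 1 of 6, Psmc3, rose in TruSeq (0.27 ± 0.09, adjusted p = 0.0399), and the others ran from -0.01 for Psmc1 to 0.25 for Psmc2. With TMM 4 of 6 were called higher there (Psmc2, Psmc3, Psmc4 and Psmc5). Over all genes TruSeq called 12.3% higher on library totals and 16.7% with TMM. Of the leave-outs, the Psmc3 call held only in that without saline mouse 3, and adjusted p reached 0.0868 in the rest. V4 changes lay between 0.09 and 0.31 and Pico changes between 0.05 and 0.38, and none passed, although Psmc6 was called in Pico with TMM (adjusted p = 0.0346). Among the other base subunits, Psmd4, the ubiquitin receptor known as Rpn10, counted 999, 1025 and 1061 in saline and 1239, 1255 and 1321 after IL-1β in TruSeq. The saline and treated libraries were well apart (0.35 ± 0.09, adjusted p = 0.0122). V4 gave 1813, 1893 and 2002 against 2388, 2549 and 2092 (0.30 ± 0.15), also apart, and Pico 598, 507 and 617 against 598, 760 and 601, which overlapped (0.21 ± 0.13). The scaffold subunits Psmd1 and Psmd2 stood at 0.13 ± 0.11 and 0.14 ± 0.08 in TruSeq, and Psmd2 was called with TMM (0.30, adjusted p = 0.0190). Psmd2 also has a further locus with 97.0% identity over 91.9% of its transcript, at Gm5422.

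In the lid, which holds the deubiquitinase Psmd14, 3 of 8 subunits rose in TruSeq on library totals and 4 of 8 with TMM, which added Psmd8. The shares of all TruSeq genes called higher were 12.3% and 16.7%. Psmd7, the partner of Psmd14, counted 915, 977 and 859 in saline and 1143, 1192 and 1173 after IL-1β (0.40 ± 0.09, adjusted p = 0.00932). Its V4 counts were 1483, 1412 and 1509 against 1759, 2280 and 1861 (0.42 ± 0.16), and its Pico counts 393, 362 and 358 against 413, 506 and 423 (0.29 ± 0.14). Treated libraries lay above saline libraries for Psmd7 in each kit, and it passed in all 3 kits with TMM (adjusted p 0.00142, 0.0438 and 0.0363 in TruSeq, V4 and Pico). Psmd3 rose by 0.37 ± 0.10 and Psmd11 by 0.28 ± 0.10 in TruSeq, the latter at an adjusted p of 0.0487 and with 54.6% of its transcript repeated elsewhere at 98.0% identity. The Psmd3 call was lost without IL-1β mouse 2 or saline mouse 1 or 2 (adjusted p up to 0.0551), and that of Psmd11 held only without IL-1β mouse 3 (up to 0.122 in the rest). Psmd14 itself stood at 0.19 ± 0.14 in TruSeq, 0.31 ± 0.18 in V4 and 0.32 ± 0.20 in Pico, and did not pass.

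The chaperones of the regulatory particle split in direction. Psmd10, or gankyrin, an ATPase chaperone also known as a liver oncoprotein, counted 138, 128 and 115 in saline and 221, 202 and 166 after IL-1β in TruSeq (0.66 ± 0.15, adjusted p = 0.00803). V4 counts were 268, 309 and 225 against 416, 438 and 376 (0.63 ± 0.22, adjusted p = 0.0915, and 0.0462 with TMM, 0.0313 with edgeR and 0.00984 with DESeq2), and Pico counts 32, 21 and 36 against 49, 32 and 43 (0.51 ± 0.35). Its groups overlapped in Pico alone. Psmd5, another ATPase chaperone, went the other way, at 501, 560 and 463 counts in saline and 376, 377 and 333 after IL-1β in TruSeq. It was lower in every treated library, as were 29.3% of all TruSeq genes, and was called (-0.44 ± 0.11, adjusted p = 0.0144). V4 gave 749, 999 and 748 against 554, 552 and 569 (-0.55 ± 0.19, adjusted p = 0.089) and Pico 149, 113 and 110 against 94, 78 and 97 (-0.43 ± 0.22, adjusted p = 0.211), without overlap in either. The TruSeq call of Psmd5 was lost without saline mouse 2 (adjusted p = 0.0507) and with TMM (-0.29, adjusted p = 0.0817). Relative to the all-gene median of -0.17, its difference was -0.27. The third, Psmd9, stood at 0.20 ± 0.16.

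Of the 4 core chaperones Psmg1 to Psmg4, which help build the α ring, Psmg4 rose in TruSeq, from 41, 25 and 34 to 48, 53 and 60 counts (0.75 ± 0.23, adjusted p = 0.0315). That call was lost without IL-1β mouse 2 or 3 or saline mouse 2 or 3. V4 counts of Psmg4, at 106, 120 and 312 against 270, 228 and 162, overlapped. Psmg1 stood at -0.35 ± 0.14 in TruSeq (adjusted p = 0.078), -0.31 ± 0.21 in V4 and -0.48 ± 0.34 in Pico. The inhibitor PI31, encoded by Psmf1, counted 353, 387 and 397 in saline and 262, 294 and 264 after IL-1β in TruSeq. All treated libraries were lower, and the change was called (-0.43 ± 0.11, adjusted p = 0.0133). V4 gave 494, 447 and 721 against 355, 425 and 548 (-0.31 ± 0.24) and Pico 100, 99 and 70 against 93, 82 and 57 (-0.20 ± 0.26), both with overlap. The Psmf1 call held in all 6 TruSeq leave-outs and was lost with TMM (-0.27, adjusted p = 0.0869).

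The activator PA28 is a ring of Psme1 and Psme2 that opens the core for peptides, and both genes are textbook interferon-γ targets. Psme1 (chr14:56196960-56200366) counted 892, 806 and 933 in saline and 956, 897 and 823 after IL-1β in TruSeq, with overlap (0.07 ± 0.10). V4 gave 1425, 1417 and 1731 against 1942, 1912 and 1603, and Pico 548, 529 and 420 against 456, 563 and 407, also with overlap. Psme2 (chr14:56206278-56209950) counted 180, 165 and 152 against 231, 197 and 182 in TruSeq (0.33 ± 0.14, adjusted p = 0.0936, and 0.0201 with TMM). The TruSeq groups did not overlap, and neither did the V4 counts of 159, 171 and 192 against 295, 220 and 225 (0.50 ± 0.25). Pico gave 24, 27 and 12 against 12, 27 and 25, with full overlap.

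Psme2 cannot be read alone, since a single-exon copy, Psme2b-ps (chr11:48758856-48759692), repeats 794 of the 962 bases of its transcript with 99.37% identity. The aligned bases hold 5 differences, all in the coding part.

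On either side of the differences the aligned transcripts are identical over 341 and 221 bases, longer than the 150-base reads of Pico and V4 and the 125-base reads of TruSeq. The copy took most of the counts: of both rows together it held 83.8% in TruSeq, 90.7% in V4 and 87.4% in Pico. Psme2b-ps counted 812, 768 and 882 in saline and 1135, 1196 and 950 after IL-1β in TruSeq, without overlap (0.45 ± 0.11, adjusted p = 0.0128), and it rose in V4 as well, from 1472, 1524 and 1988 to 2608, 2473 and 2232 (0.57 ± 0.16, adjusted p = 0.0446). Pico gave 173, 97 and 118 against 183, 151 and 157 (0.40 ± 0.22), with overlap. The TruSeq call held in 2 of 6 leave-outs, those without IL-1β mouse 3 or saline mouse 3, and the V4 call in 1, that without saline mouse 3. Summed over both rows, an alternative chosen after seeing the data, the change was 0.43 ± 0.11 in TruSeq (adjusted p = 0.0125), 0.56 ± 0.16 in V4 (0.0433) and 0.36 ± 0.20 in Pico (0.258). Which locus the reads came from was not tested.

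**Figure D4:**
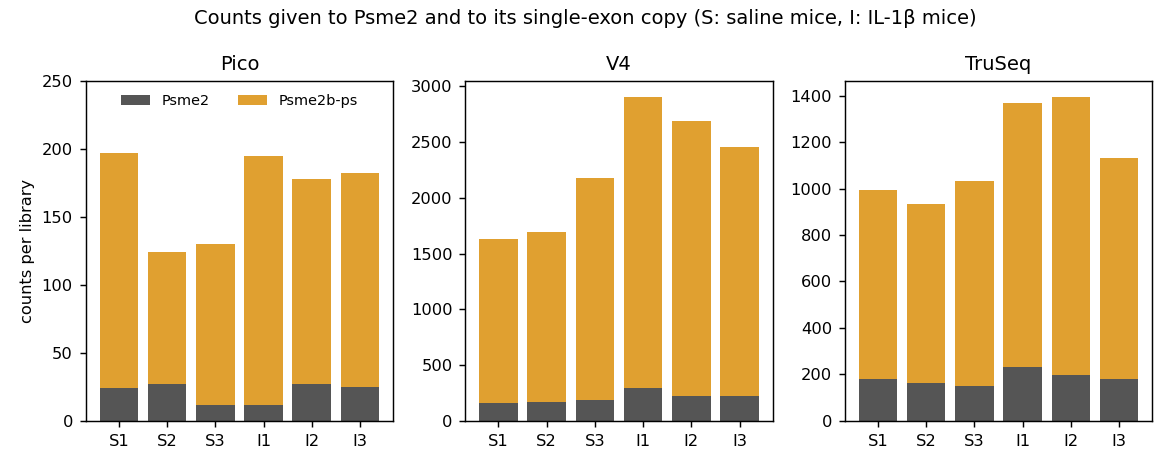
Counts per library (y axis) given to Psme2 and to Psme2b-ps, stacked, for the 3 saline (S) and 3 IL-1β (I) mice of each kit. In TruSeq the sum was 933 to 1034 in saline and 1132 to 1393 after IL-1β, and the copy held the larger part of each bar.

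The remaining activators, Psme3 (PA28γ, nuclear) and Psme4 (PA200), passed in no kit on library totals, but Psme3 was called higher in TruSeq with TMM (0.35, adjusted p = 0.0283), edgeR (0.0283) and DESeq2 (0.0233). Psme3 counted 889, 978 and 818 against 1075, 965 and 936 in TruSeq, with overlap, 931, 1008 and 913 against 1016, 1090 and 972 in V4, and 228, 243 and 240 against 304, 277 and 271 in Pico. Only the Pico groups were apart (0.29 ± 0.15, adjusted p = 0.218). Psme4 counted 2261, 1868 and 1901 against 1577, 2073 and 1599 in TruSeq, 310, 360 and 302 against 287, 162 and 268 in V4, and 885, 908 and 911 against 804, 794 and 773 in Pico. It was lower in all treated Pico libraries (-0.16 ± 0.10, adjusted p = 0.329) and in all treated V4 libraries (-0.47 ± 0.26, adjusted p = 0.307). The 3 other pseudogene rows and Psmc3ip stayed at or below 1.41 CPM per kilobase in saline in each kit, and none was called.

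The level of a proteasome gene differed widely between kits. Relative to TruSeq in the same mouse, V4 levels in CPM were 3.40-fold for Psmb6 and for Psmb5, and 0.153-fold for Psme4, the longest member with 8382 exonic bases. Psme4 stood at 18.8 CPM per kilobase in saline TruSeq libraries, 26.2 in Pico and 3.18 in V4. The median member stood 0.76 log2 units higher in V4 than in TruSeq, against -0.43 over the 11480 genes that averaged 10 counts or more in each of the pair. In Pico the median member stood at -0.48 relative to TruSeq, against 0.05 over 10969 genes. Across the 45 members, Spearman's rho of the V4 to TruSeq log2 ratio with exonic length was -0.56, and across all genes it was -0.60. For Pico it was 0.43 over the members and 0.41 over all genes. Genes are not independent replicates, and these values share libraries and mice. Psmb8 and Psmb10 stood 2.67-fold and 2.56-fold as high in V4 as in TruSeq.

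**Figure D5:**
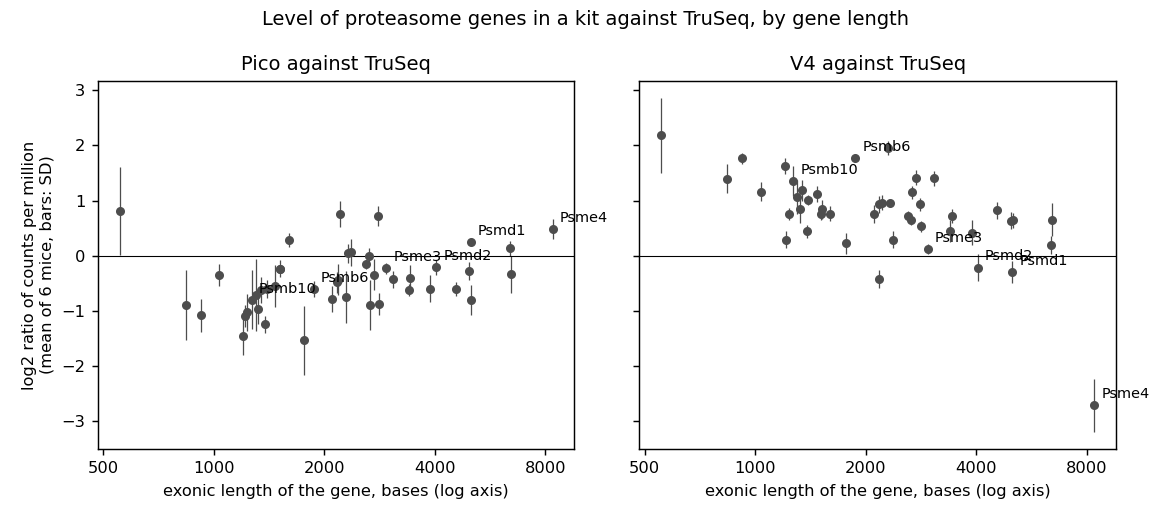
Log2 ratio of the CPM of a proteasome gene in Pico (left) or V4 (right) to its CPM in TruSeq (y axis, mean of 6 mice with SD) against exonic length in bases (log x axis) for 45 genes. Psme4 is the lowest point in the V4 panel, at -2.71.

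Of 25 measured genes in a list of other proteasome pathway factors, 5 rose and 4 fell in TruSeq, and their median log2 fold change was -0.01. Over all genes TruSeq called 12.3% higher and 21.8% lower, and 20.8% and 31.4% among genes averaging 100 counts or more. Ubb, a polyubiquitin gene, rose by 0.81 ± 0.08, Adrm1, the ubiquitin receptor Rpn13, by 0.69 ± 0.16, and Vcp, the segregase p97, by 0.32 ± 0.09. Nfe2l1, the transcription factor that induces proteasome genes when the proteasome is short, rose by 0.46 ± 0.09, as did Ddi2, the protease that activates it, by 0.62 ± 0.09. Ngly1, which deglycosylates NFE2L1, fell by 0.69 on the log2 scale, and Fbxo7 and Uchl5 fell by 0.56 and 0.46. Pico called 3 higher (Ddi2, Ubb and Nfe2l1) and 2 lower, against 6.78% and 10.8% of all genes. V4 called 2 higher (Adrm1 and Ubb) and 0 lower, against 3.6% and 7.41%. With TMM, TruSeq called 8 higher and 2 lower, against 16.7% and 16.1% of all genes, and Uchl5 no longer passed.

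The peptide-loading genes carry proteasome products to MHC class I. Of 8, TruSeq called 3 higher and 1 lower: the tapasin gene Tapbp rose by 0.96 ± 0.10, Calr (calreticulin) by 0.52 ± 0.12 and the peptide transporter Tap2 by 0.44 ± 0.13, while B2m, the class I light chain, fell by 0.30. The B2m call was lost with TMM. Pico called Tapbp (0.67 ± 0.14) and Calr (0.30 ± 0.08), and V4 called none with library totals and Tapbp with TMM (adjusted p = 0.0306). Among 17 genes of the interferon pathway, TruSeq called 7 higher and 2 lower. Cxcl9 rose by 5.73 ± 0.23 and Gbp2 by 3.78 ± 0.32, with Gbp3, Ifngr2, Stat2 and Jak1 also higher. Irf1, a known activator of immunoproteasome genes, had a log2 fold change of -1.56 in TruSeq, -1.61 in Pico and -1.43 in V4, all called. Its V4 call was lost with TMM (adjusted p = 0.0942). Irf2 fell by 0.68 on the log2 scale in TruSeq. Ifng itself, which encodes interferon-γ, counted 0, 0 and 3 in saline and 0, 0 and 0 after IL-1β in TruSeq, and 0, 6 and 0 against 0, 0 and 0 in V4, where 0 allows up to 3 counts a library. It was not among the genes tested in Pico. Pico called 8 higher and 1 lower of 16 measured, and V4 2 and 1 of 17. Over all genes the shares called were 12.3% higher and 21.8% lower in TruSeq. They were 6.78% and 10.8% in Pico and 3.6% and 7.41% in V4.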

How the data were processed

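Liver RNA of 6 mice was measured in 3 kits. The deposited values are counts per gene: the authors aligned reads with GSNAP to mm9, removed ribosomal reads and resampled reads with PORT so that libraries of a kit had like depth, sense strand for Pico and TruSeq and both strands for V4. Each table was normalized separately, so tests stayed within a kit except for the interaction. Genes above 0 in at least 1 library were fitted with limma 3.58.1 (voom, which the study also used, here on library totals), with edgeR 4.0.16, DESeq2 1.42.0, TMM, other filters and thresholds, thinning to 4024632 counts and leaving out each mouse as alternatives. The code was tested on simulated data. Lengths and places are from GENCODE vM1 (mm9), copies from BLAST (at least 95% identity over at least 50% of the longest coding transcript), promoters from RefSeq on GRCm38.p6. Of the 38 members with a promoter window, 32 ended in sequence found in their own transcript in sense and 0 in antisense. Psmb6 was found in neither direction.

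Values in every library were given for the catalytic subunits, Psme1 to Psme4 and the 8 further members with the smallest TruSeq p among those called. The members and gene lists were chosen with earlier results of these data known. Planned ratios of Psmb9 to Psmb6 could not be computed. Replicates are separate mice, and no pair agreed within sampling noise (chi-square per degree of freedom at least 7.63). Libraries of 1 mouse deviated together from their group mean in each pair of kits (lowest correlation 0.176 between Pico and TruSeq, 0.154 between TruSeq and V4, 0.0591 between V4 and Pico). None was above 0 between mice of a group. Centring on the group mean pulls those values below 0 on average, so they carry no weight. The pairing itself comes from the shared RNA of the mouse. Limits on a count of 0 cover counting error only. Some genes of the lists, though counted in them, and some sequences are not reported here.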

Additional observations from a re-analysis of the deposited data

How the results depend on the processing

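Scaling, threshold and depth moved the counts of members called. In TruSeq, 13 higher calls became 24 with TMM in voom, 25 with edgeR and 25 with DESeq2, 4 at adjusted p 0.01 and 7 after thinning to the depth of the smallest library (median of 5 draws), and 3 lower calls became 1, 1, 0, 0 and 1. In V4, 2 higher calls became 5, 5, 7, 0 and 1 under the same settings, and 4 higher and 1 lower at adjusted p 0.1. In Pico, 1 higher call became 6, 6, 6 and 0 under the first 4 of them, and 3 both at adjusted p 0.1 and with at least 10 counts in 3 libraries. Leaving out 1 mouse gave 5 to 12 higher and 2 to 3 lower members in TruSeq, 0 to 2 and 0 in V4 and 0 to 1 and 0 in Pico. The TruSeq count of higher members was 5 without IL-1β mouse 2, 6 without saline mouse 1, 7 without IL-1β mouse 1 and 8 without saline mouse 2. Of the 16 TruSeq calls, 6 held in every leave-out: Psma5, Psmb10, Psmd4, Psmd7, Psmd10 and Psmf1. The mouse as a replicate block left 0 members whose response differed between kits, as did every alternative run for the 3 pairs. The log2 ratio of Psmb8 to Psmb5 (IL-1β minus saline) ranged over the leave-outs from 0.17 to 0.65 in Pico around 0.39 (lowest without saline mouse 3, highest without saline mouse 2), 0.11 to 0.35 in TruSeq around 0.23 (without IL-1β mouse 2 and 3) and 0.40 to 0.62 in V4 around 0.50. That of Psmb10 to Psmb7 ranged from 0.14 to 0.49 in Pico around 0.30 (without saline mouse 1 and 2), 0.62 to 0.96 in V4 around 0.76 and 1.01 to 1.26 in TruSeq around 1.12. All stayed above 0. With 20 added reads the 6 ratios lay between 0.21 and 1.08. With 3 mice a group no exact test of a single value can pass 0.05, and the Pico libraries held fewer counts than those of V4 and TruSeq, which widens their errors.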
